A study of Mus musculus with 4 samples.

Results

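For each gene, the response of cultured hippocampal neurons to 3 h of raised firing was compared between cultures with and without a hairpin against Kdm6b, and the difference of the 2 responses is called the interaction. A gene was included when its level was at least 5 FPKM (a fragment count scaled by transcript length and library depth) in at least 1 of the 4 libraries and its annotated locus was at least 300 bp long. Symbols with a row marked as failed and genes for small RNAs were left out. These rules kept 10441 of 22492 gene symbols, of which 9210 were at 5 FPKM or more in all 4 libraries. A gene could thus pass through 1 group alone in which it was high, and the counts for gene lists below include such genes. Just inside the level limit, Leng1 (highest level 5.0004 FPKM) had an interaction of 0.19 and Stc2 (5.002 FPKM) 0.19, and just outside it Slc27a3 (4.999 FPKM) had 0.12 and Sh3bp2 (4.997 FPKM) -0.08.

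The neurons came from CD1 mouse pups, an outbred strain, at postnatal day 0, and polyA RNA was sequenced after 11 days in vitro. All cultures were infected on day 4 in vitro with a lentivirus, which was the pLKO.1 vector in the control cultures (vector) and carried 1 short hairpin RNA against Kdm6b in the others (hairpin). On day 11 a culture of each kind was left untreated, and another received 50 µM bicuculline (read so from the unit 50µm in the labels) and 2.5 mM 4-aminopyridine for 3 h (Bic/4AP). The control carried no other hairpin per the labels, so the effect of this target sequence and that of any hairpin cannot be told apart. Whether cultures were pooled from several pups is not given in the sources used here. Each of the 4 groups is 1 library, so there are no replicates, no difference was tested, and every value describes single libraries. In bulk RNA, fewer cells of a type and less RNA per cell cannot be told apart.

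Bicuculline is an antagonist of GABA-A receptors and 4-aminopyridine closes off voltage-gated potassium channels, a pair of drugs used to drive bursts of synaptic firing. Calcium entry then switches on immediate-early transcription factors such as Fos and Npas4, which act with CREB on later effector genes for neuropeptides, growth factors and synaptic proteins. Kdm6b (also called Jmjd3) removes methyl groups from lysine 27 of histone H3, a mark of Polycomb repression, and is itself induced by activity and by inflammatory signals. Interferon-stimulated genes, which encode antiviral proteins, are switched on by interferon signalling at a motif called the interferon-stimulated response element.

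The hairpin sequence is shown because every interaction rests on cultures that carried it or the vector, and it is written in lower case throughout as no part of it is singled out:
Kdm6b shRNA target: ctgttcttgagggacaaactc

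Kdm6b itself, on chromosome 11 from 69212020 to 69227177 (mm9), stood at 6.74 FPKM in vector untreated, 13.1 in vector Bic/4AP, 2.73 in hairpin untreated and 4.83 in hairpin Bic/4AP. Both hairpin libraries lay below both vector libraries. The level was higher with Bic/4AP in each background, by 0.87 with the vector and 0.64 with the hairpin on the scale log2(FPKM + 1). Its interaction was -0.23, with a combined half-width of 0.12 from the authors' bounds. All differences below are on this scale, which understates those of weakly expressed genes, and 4 levels in a row follow the order vector untreated, vector Bic/4AP, hairpin untreated and hairpin Bic/4AP.

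The libraries were of similar precision: at 5 FPKM or more the authors' bounds lay a median of 4.18 to 4.44% from the value, and 9710 to 10008 genes reached that level. Total read counts are not in the tables used here, so the depth itself is unknown. Such bounds speak for precision inside a library and say nothing of the spread between cultures. The neuronal gene Snap25 was at 383 to 452 FPKM and the astrocyte gene Gfap at 1514 to 1767, so the cultures held astrocyte RNA beside that of neurons. The endothelial genes Pecam1 and Cldn5 stayed under 0.4 FPKM in all 4 libraries, but Kdr, an endothelial receptor gene, had 3.41, 3.53, 5.46 and 4.79 FPKM and Acta2, a mural cell gene, 63.6, 73.8, 55.6 and 50.7. Except for Kdr and Acta2, these marker genes were looked up as defining markers and not through the rule for named genes.

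The interaction can arise in either state. It equals the hairpin difference with Bic/4AP (hairpin minus vector) minus the hairpin difference in untreated cultures, so the 2 differences were kept apart. An interaction was called led by 1 state when that state held at least 66.7% of the summed size of both differences, and otherwise shared. The share of all genes led by each state is not given here. Counts of led genes below are therefore not read as particular to a gene list. Over all 10441 genes the median interaction was -0.02 with an SD across genes of 0.18. The 5th and 95th percentiles were -0.26 and 0.25. Median responses over all genes were -0.07 with the vector and -0.08 with the hairpin. Median hairpin differences were 0.04 untreated and 0.03 with Bic/4AP.

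An interaction of at least 1 was found for 12 genes on the higher side (0.115% of genes compared) and 10 on the lower side (0.0958%). At 0.5 or more in size there were 103 higher (0.986%) and 67 lower (0.642%). The interaction was above 0 for 4670 genes (44.7%) and below 0 for 5771 (55.3%). It was larger than the combined half-width of the authors' bounds for 1800 higher genes (17.2%) and 2269 lower genes (21.7%). Just inside the size of 1 were St8sia4 and Gipr (1.10 each) and Oasl2 (-1.04) and Gm4951 (-1.03). Just outside were Gng13 (0.99), Inhba (0.95), Rtp4 (-0.97) and Irgm1 (-0.96).

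The 2 states were then separated for the larger interactions. Of the 103 higher genes, 92 were lower with the hairpin in untreated cultures and 73 were higher with it under Bic/4AP. The untreated state led 41 of them, Bic/4AP led 28, and 34 were shared. Of the 67 lower genes, 62 were higher with the hairpin untreated, while 31 lay above and 36 below the vector under Bic/4AP. Here the untreated state led 42, Bic/4AP led 12, and 13 were shared. Over all genes compared, 57.9% were higher with the hairpin untreated and 55.4% with Bic/4AP. Because the genes were picked by the interaction, which these differences make up, nothing is read from the signs. With 1 library per group, the library and the condition cannot be told apart.

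**Figure D1:**
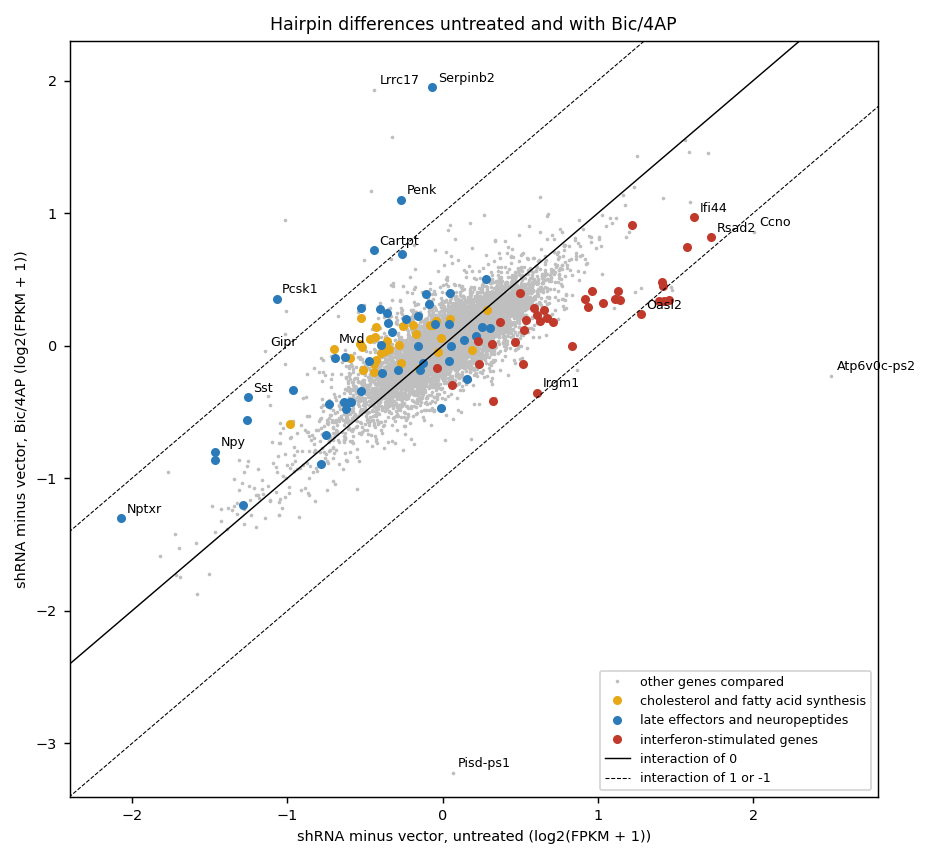
Hairpin minus vector difference in log2(FPKM + 1) for each gene, untreated on the x axis and with Bic/4AP on the y axis; the solid line marks an interaction of 0 and the dashed lines 1 and -1. Interferon-stimulated genes (red) lie right of and below the solid line, and most late effector and neuropeptide genes (blue) and cholesterol genes (yellow) lie above it.

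Interferon-stimulated effector genes were the list with the most members on the lower side. As the lists were chosen with earlier results of these data known, nothing is read from this rank. Of 57 listed genes, 30 passed the level rule, and the interaction was below 0 in 30 of 30, with a median of -0.65. It was -0.5 or less in 19 of them and -1 or less in 4, beside 0.642% and 0.0958% of all genes compared. Some members, such as Rsad2, passed the level rule only through hairpin libraries, where they were high. Nothing is therefore read from the count of signs alone. Over the alternative settings, among them 5 FPKM in all 4 libraries, the list median ran from -0.73 to -0.43. A further 22 listed genes were under 5 FPKM in all 4 libraries or otherwise left out, and 5 were not among the symbols. In vector cultures the median response to Bic/4AP was 0.40, with 27 of 30 above 0. In hairpin cultures it was -0.25, with 24 of 30 below 0. The median hairpin difference was 0.87 untreated and 0.28 with Bic/4AP, and 23 of the 30 interactions were led by the untreated state.

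Ifit1, which binds viral RNA lacking the host cap marks, lies on chromosome 19 from 34715379 to 34724499 (mm9). Its levels were 4.49, 8.43, 14.1 and 11.0 FPKM. The vector response was thus 0.78 and the hairpin response -0.33, an interaction of -1.11 (half-width 0.17). The untreated hairpin library was the highest of the 4 and the untreated vector library the lowest, and the 2 Bic/4AP libraries lay between them.

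Isg15, a ubiquitin-like modifier, had the same order of libraries, with 12.8, 20.4, 35.3 and 26.0 FPKM and an interaction of -1.05. Usp18, the protease that removes Isg15 from proteins and dampens interferon signalling, stood at 5.11, 7.99, 15.3 and 11.6 FPKM (-0.93). Oasl2, of the oligoadenylate synthetase family, stood at 6.15, 7.51, 16.3 and 9.04 FPKM (-1.04). For these 3 genes hairpin Bic/4AP remained above vector Bic/4AP, and the gap between backgrounds was smaller than in untreated cultures.

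The antiviral enzyme gene Rsad2 (viperin) had 2.01, 4.41, 9.004 and 8.55 FPKM, with an interaction of -0.91. Irgm1, an interferon-inducible GTPase, differed in pattern: its levels were 16.8, 51.8, 26.1 and 40.3 FPKM, and the interaction of -0.96 was shared by both states. Irgm1 was higher with Bic/4AP in both backgrounds, and the hairpin library was above the vector untreated and below it with Bic/4AP. The GTPase genes Iigp1 (-1.08) and Gm4951 (-1.03), named Ifgga2 in RefSeq, were led by the untreated state. Gm4951 passed the level rule through the untreated hairpin library alone. The smallest sizes in the list were Ifi204 (-0.13), Ifit2 (-0.19) and Cmpk2 (-0.19). Ifit2, of the same gene family as Ifit1, had 9.67, 8.92, 12.8 and 10.3 FPKM.

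**Figure D2:**
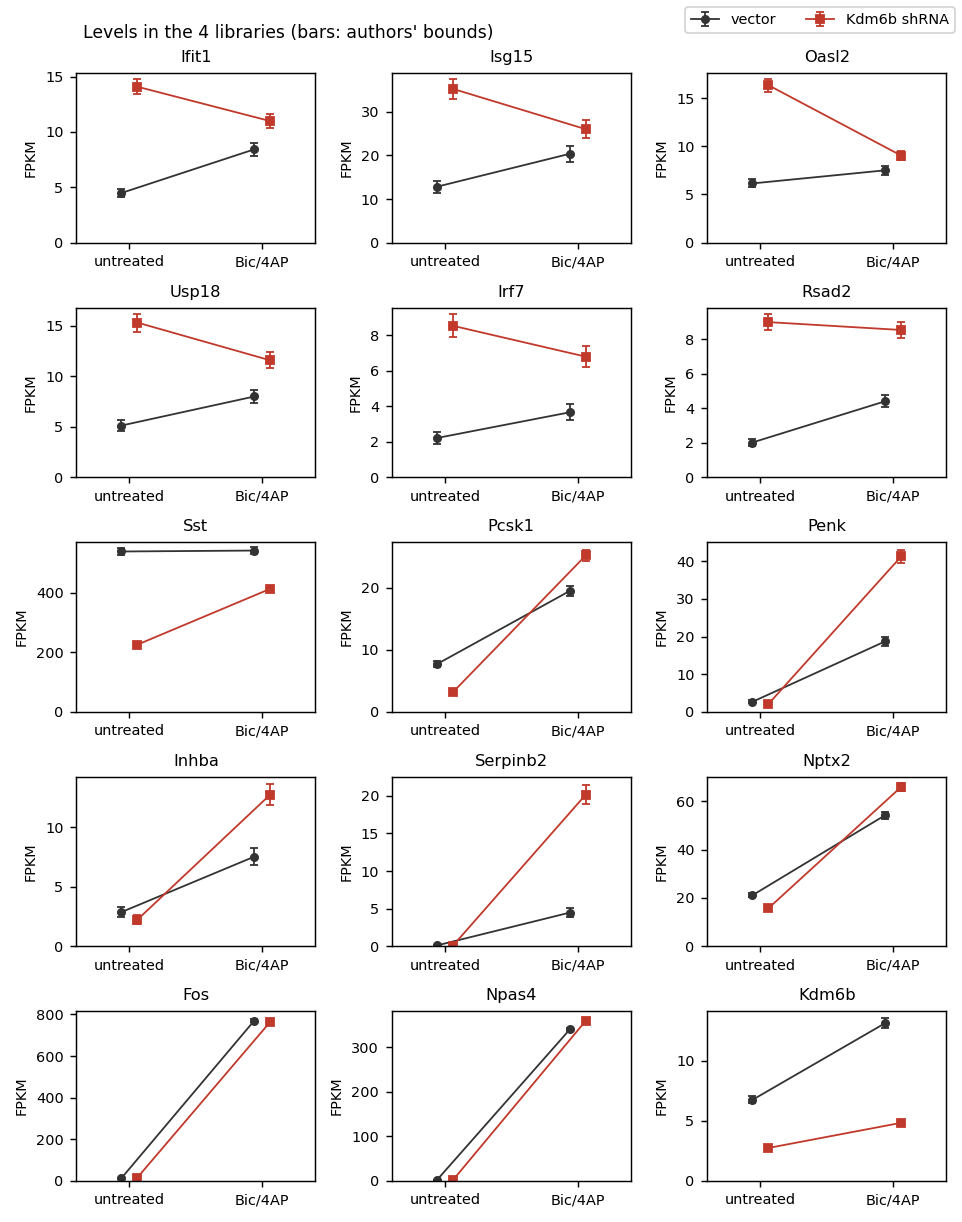
FPKM of 15 genes in untreated and Bic/4AP cultures with the vector (black circles) or the Kdm6b hairpin (red squares), 1 library per point; bars are the authors' bounds within a library. The 2 lines converge under Bic/4AP for Ifit1, Isg15, Oasl2, Usp18, Irf7, Rsad2 and Sst, cross for Pcsk1, Penk, Inhba and Nptx2, and run close together for Fos and Npas4.

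The regulators of these genes had smaller values of the same sign. Of 14 listed interferon-stimulated transcription factor and sensor genes 7 were compared, and the interaction was below 0 in 7 of 7 (median -0.38). Of all genes compared, 55.3% were below 0. Irf7, which amplifies interferon production, had 2.21, 3.66, 8.55 and 6.80 FPKM and an interaction of -0.83. It passed the level rule through the hairpin libraries alone, so nothing is read from the count of signs. Irf9 (-0.38) and Stat2 (-0.34), which act together in interferon signalling, were led by the untreated state as well. Irf1 had 5.84, 12.6, 8.64 and 16.8 FPKM, and its interaction of -0.10 was within its combined half-width of 0.22.

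Genes of MHC class I antigen presentation, which load peptides for display to T cells, had a median interaction of -0.30, with 12 of 15 below 0. Among all genes compared, 55.3% were below 0. The immunoproteasome gene Psmb8 stood at 7.90, 11.9, 10.9 and 10.1 FPKM (-0.64) and the peptide transporter gene Tap1 at 7.10, 10.5, 11.5 and 11.0 FPKM (-0.55). For both, the untreated vector library was the lowest and the other 3 lay close together. The proteasome genes Psmb10 (0.15) and Psme1 (0.11) were above 0.

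The promoters of the interferon-stimulated effectors were searched for the response element, since these genes lay on 1 side. The list is of interferon-stimulated genes, so a high share among them is given by the choice of list. Nothing about the interaction is read from that share. Windows of 250 bases before to 50 bases after the start sites came from RefSeq (GRCm38.p6), where 8327 of the 10441 genes matched by symbol. The motif, GAAA, then any 2 bases, then GAAA, on either strand, was in a promoter of 14 of 22 matched effector genes (63.6%) and of 286 of the 8327 genes compared (3.43%). Over single promoters of the same length, 298 of 10796 held it (2.76%). Among genes with an interaction of -0.5 or less that were in neither interferon list, 2 of 34 held it (5.88%), and among genes at 0.5 or more 5 of 72 (6.94%). The 2 were Cxcl10, an interferon-induced chemokine gene, and I830012O16Rik, taken up for its match, whose element letters are those of Ifit3. The 34 are thus genes outside the lists and not genes known to be free of interferon control. Sites from 4 of these genes and from Cxcl10 are shown with the match in capitals; in Ifit1 and Rsad2 it lies on the strand opposite to the gene and so reads as its reverse complement.
Ifit1, chr19:34640794-34640823, plus strand: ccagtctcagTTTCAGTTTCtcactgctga
Isg15, chr4:156200871-156200900, minus strand: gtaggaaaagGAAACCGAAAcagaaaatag
Irgm1, chr11:48871425-48871454, minus strand: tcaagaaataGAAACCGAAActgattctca
Rsad2, chr12:26456553-26456582, minus strand: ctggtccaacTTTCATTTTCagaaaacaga
Cxcl10, chr5:92349083-92349112, minus strand: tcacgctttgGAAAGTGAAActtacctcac
The matches begin at -85, -72, -24, -120 and -213 from the start sites in this order. Ifit1, Isg15 and Irgm1 hold further matches in their promoter windows. Those of Isg15, at -78 and -66, and that of Irgm1, at -30, overlap the match in capitals. They are partly in lower case in the stretches shown. A match describes letters and not binding.

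Chemokines and inflammatory genes were divided. Their median interaction was 0.00, with 11 of 21 above 0 and 10 below. Cxcl10, an interferon-induced chemokine, had 3.99, 49.3, 12.9 and 66.4 FPKM. It was higher with Bic/4AP in both backgrounds, by 3.34 with the vector and 2.28 with the hairpin, so its interaction was -1.06. Its locus overlaps Art3, which was at 1.02 to 1.51 FPKM.

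In the opposite direction, the chemokine gene Ccl5 had 1.03, 4.96, 0.431 and 8.34 FPKM and an interaction of 1.15 (half-width 0.62). Ccl5 passed the level rule through the hairpin Bic/4AP library alone. The neutrophil chemokine gene Cxcl2 had 0.0957, 11.0, 0.160 and 20.0 FPKM (0.72, led by Bic/4AP). Ptgs2, the inducible prostaglandin synthase also made by active neurons, had 1.63, 55.5, 0.823 and 67.7 FPKM (0.81). For Ccl5 and Ptgs2 the hairpin library was the lower untreated and the higher with Bic/4AP.

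Microglia, the immune cells of the brain, express interferon-stimulated and chemokine genes. The 18 listed microglia markers summed to 153, 173, 69.5 and 79.9 FPKM, so the hairpin libraries held 45.3% of the vector sum untreated and 46.2% with Bic/4AP. Of the 8 microglia markers compared, 0 had an interaction of 0.5 or more in size, and their median was 0.12. None of the defining microglia markers looked up was at 0 in all 4 libraries, and they did not share 1 pattern. C1qa had 14.2, 13.3, 4.66 and 4.72 FPKM, Aif1 4.73, 3.53, 4.41 and 3.66, and P2ry12 1.43, 1.35, 1.88 and 1.52. The markers' part in the interaction of these lists was not tested.

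Late activity-regulated effectors were the list with the most members at 0.5 or more. The lists were chosen with earlier results of these data known, so nothing is read from this rank. Of 46 listed genes 38 were compared, and the interaction was above 0 in 30 and below 0 in 8 (median 0.40). It was 0.5 or more in 15, 1 or more in 3 and -0.5 or less in 0, beside 0.986%, 0.115% and 0.642% of all genes compared. Sst, Npy, Cort and Nptxr are among the 15, with vector responses of 0.01, 0.14, 0.32 and -0.98. The 15 are thus not all genes induced by Bic/4AP in vector cultures. Cort was taken up after its values were seen. The median response of the 38 was 1.23 with the vector and 1.51 with the hairpin. The median hairpin difference was -0.34 untreated and 0.06 with Bic/4AP, and the untreated hairpin library held the lowest level for 25 of the 38. Over all genes compared, that library was the lowest for 12.8%.

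Of 27 listed neuropeptide and peptide-processing genes 21 were compared, with 18 above 0 and a median of 0.21, where 44.7% of all genes were above 0. The 2 lists share members, and together they hold 50 genes compared, 17 of them at 0.5 or more, beside 0.986% of all genes compared. Pcsk1, a convertase that cuts prohormones, lies on chromosome 13 from 75227435 to 75269946 (mm9) and had 7.67, 19.5, 3.14 and 25.2 FPKM. Its response was 1.24 with the vector and 2.66 with the hairpin, an interaction of 1.42 led by the untreated state. Its hairpin library was the lowest of the 4 untreated and the highest with Bic/4AP.

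Penk, the enkephalin precursor, had 2.63, 18.7, 2.02 and 41.3 FPKM, and its interaction of 1.37 was led by Bic/4AP. Cartpt, the precursor of the CART peptides, had 5.04, 11.0, 3.45 and 18.8 FPKM (1.16, half-width 0.43). The hairpin library had the highest level of Penk and of Cartpt under Bic/4AP.

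The inhibitory peptide gene Sst, for somatostatin, behaved differently: it stood at 539, 542, 225 and 413 FPKM. Its response was 0.01 in vector cultures and 0.87 in hairpin cultures, and both hairpin libraries stayed below both vector libraries. Npy, for neuropeptide Y, had the same order, with 162, 179, 58.2 and 102 FPKM (0.66). In all, 9 of the 21 genes were at 0.5 or more. The 3 below 0 included Cpe, the carboxypeptidase that trims peptides, at 2016, 2184, 1849 and 1994 FPKM (-0.01), and Nmb (-0.06).

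Sst and Npy mark subsets of inhibitory neurons, so the whole inhibitory list is given beside them. Its 20 listed markers summed to 1475, 1445, 765 and 1031 FPKM, and the hairpin libraries held 51.8% of the vector sum untreated and 71.4% with Bic/4AP. Without the peptide genes Sst, Npy, Cck and Vip the shares were 67.0% and 77.8%. Of 17 inhibitory markers compared, 16 were above 0, with a median interaction of 0.25, where 44.7% of all genes were above 0. Gad1, a GABA-synthesizing enzyme, had 139, 146, 64.5 and 88.0 FPKM (0.38), and the vesicular GABA transporter gene Slc32a1 had 63.9, 57.8, 42.6 and 42.7 FPKM (0.14). The part of inhibitory cells in the neuropeptide values was not tested.

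Other members of the late list were led by Bic/4AP. Serpinb2, a protease inhibitor reported to protect neurons, lies on chromosome 1 from 109408000 to 109422177 (mm9) and had 0.106, 4.47, 0.0569 and 20.2 FPKM, an interaction of 2.02 led by Bic/4AP. Inhba, the activin A subunit, had 2.87, 7.54, 2.23 and 12.8 FPKM (0.95), also led by Bic/4AP. For both genes the untreated levels of the 2 backgrounds were close and the hairpin library was the higher with Bic/4AP. Serpinb2 passed the level rule through the hairpin Bic/4AP library alone. Bdnf, a neurotrophin, had 17.1, 60.4, 17.7 and 80.0 FPKM (0.35), led by Bic/4AP too. Adcyap1, a neuropeptide of both lists, had 5.89, 23.2, 3.46 and 21.9 FPKM (0.55) and was led by the untreated state.

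At the synapse, the pentraxin gene Nptx2, whose product clusters AMPA receptors, had 21.1, 54.2, 15.7 and 65.9 FPKM (0.68). Arc, a regulator of AMPA receptor endocytosis, had 4.89, 165, 3.61 and 185 FPKM (0.52). For both, the hairpin library was the lower untreated and the higher with Bic/4AP. The poly(ADP-ribose) polymerase gene Tiparp went the other way (-0.40), with 9.91, 59.2, 11.1 and 49.6 FPKM.

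Because several peptide genes are known CREB targets, the same windows were searched for the cyclic AMP response element, TGACGTCA. It was in 5 of 18 matched neuropeptide genes (27.8%) and 306 of 8327 genes compared (3.67%); of promoters of this length 3.08% held it. Among all genes with an interaction of 0.5 or more, 4 of 72 held it (5.56%), and among those at -0.5 or less 4 of 49 (8.16%), so the letters did not mark one side. The 5 genes were Pcsk1, Cartpt, Sst, Scg2 and Chgb, whose interactions ran from 1.42 to 0.16, and 4 are shown with the element in capitals. Scg2 and Chgb encode secretory granule proteins and were taken up for their match, after their values were seen.
Pcsk1, chr13:75089768-75089797, plus strand: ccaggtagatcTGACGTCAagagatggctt
Cartpt, chr13:99900777-99900806, minus strand: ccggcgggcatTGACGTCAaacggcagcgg
Sst, chr16:23890874-23890903, minus strand: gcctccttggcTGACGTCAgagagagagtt
Chgb, chr2:132781559-132781588, plus strand: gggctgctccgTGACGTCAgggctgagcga
The AP-1 site, TGANTCA, which is not contained in the element above, was in 494 of 8327 genes (5.93%). It was in 9 of 72 genes at 0.5 or more (12.5%) and 9 of 49 at -0.5 or less (18.4%).

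Cholesterol and fatty acid synthesis genes had a median interaction of 0.32, with 27 of 31 above 0, 8 at 0.5 or more and 0 at -0.5 or less. Among all genes compared, 44.7% were above 0, 0.986% at 0.5 or more and 0.642% at -0.5 or less. The median response of the list was -0.23 with the vector and 0.05 with the hairpin. The median hairpin difference was -0.36 untreated and 0.01 with Bic/4AP, and 18 of the 31 were led by the untreated state. Mvd, a decarboxylase of the mevalonate pathway, had 44.6, 26.6, 27.1 and 26.1 FPKM (0.68). Its untreated vector library stood alone above the other 3. Insig1, taken up after its values were seen, rose in vector cultures instead, with 66.0, 97.4, 47.4 and 101 FPKM (0.52). Over the 31 genes the untreated vector library was the highest for 16, and the untreated hairpin library the lowest for 14. Over all genes compared, the shares were 28.9% and 12.8%.

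Fdps, which makes farnesyl pyrophosphate, had the same pattern as Mvd with 135, 87.4, 92.8 and 88.3 FPKM (0.55). Lss, the lanosterol synthase gene, had 16.0, 10.5, 11.6 and 11.7 FPKM (0.57). In Stard4, a sterol carrier, the hairpin library was above the vector with Bic/4AP, at 21.0, 15.4, 14.3 and 17.9 FPKM (0.73). Srebf1, the gene of a transcription factor for lipid synthesis, was the lowest member at -0.22.

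**Figure D3:**
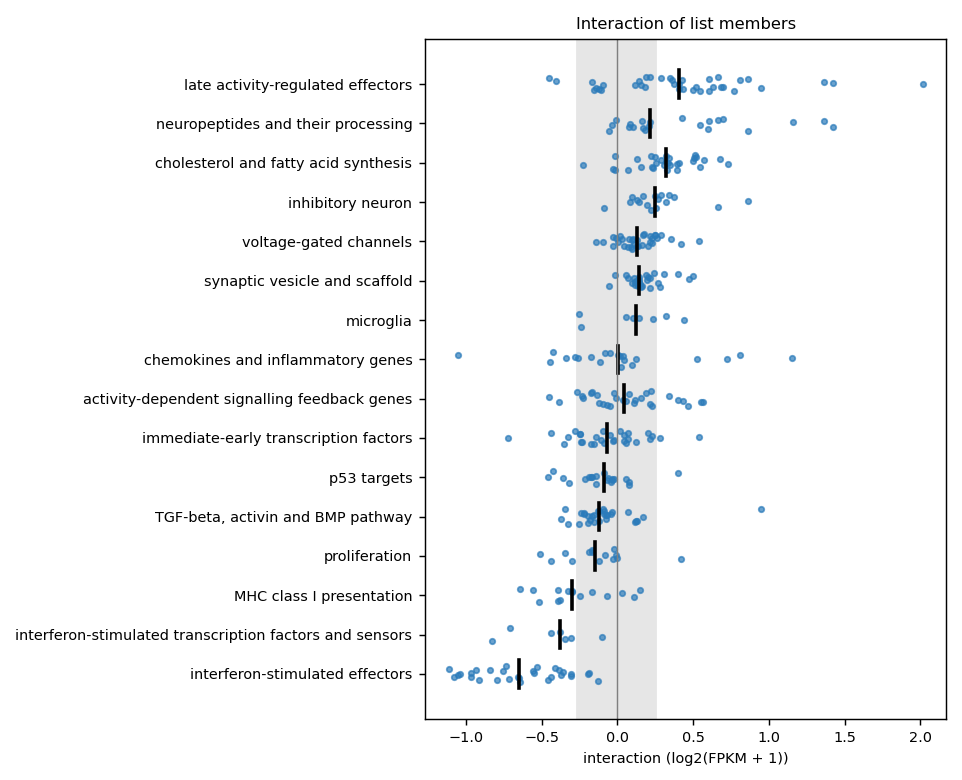
Interaction in log2(FPKM + 1) of each compared member (points) of 16 gene lists, with the list median as a black bar and the 5th to 95th percentile of all 10441 genes in grey. Interferon-stimulated effectors lie left of 0 in 30 of 30 cases, late effectors have a median of 0.40, and immediate-early factors have a median of -0.07 with members on both sides.

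Immediate-early transcription factors, the first genes induced by firing, had interactions in both directions. The median was -0.07 over 30 genes, with 12 above and 18 below 0 and 15 beyond their bounds, beside median responses of 2.804 with the vector and 2.42 with the hairpin. Fos had 12.5, 771, 15.3 and 765 FPKM (-0.28), and Npas4, a neuron-specific factor, had 1.52, 340, 1.28 and 360 FPKM (0.23). For both genes the 2 Bic/4AP libraries stood close to each other.

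Fosb reached 0.54 through its low untreated levels, with 2.91, 287, 1.69 and 286 FPKM. Ier2 was the lowest member at -0.72, with 5.65, 50.0, 5.71 and 30.2 FPKM, and was led by Bic/4AP. Jun followed with -0.44 and Klf4 with -0.35. The interactions of Nr4a1 (0.12), Egr2 (-0.24) and Atf3 (-0.33) were small beside vector responses of 4.57, 3.84 and 4.02.

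Feedback regulators of activity-dependent signalling had a median of 0.04 over 30 genes, with 16 above 0. The small GTPase gene Rrad (0.57) and Rasgef1b (0.55), an exchange factor gene, were the highest, and the growth arrest gene Gadd45g (-0.45) and the MAP kinase phosphatase gene Dusp1 (-0.39) the lowest. Rrad passed the level rule through the hairpin Bic/4AP library alone. Of 12 survival genes 7 were above 0 and 8 beyond their bounds. The median was 0.10, but -0.08 among members at 5 FPKM or more in all 4 libraries. Beside Serpinb2 and Inhba, described above, the lowest were Ifi202b (-0.45) and Gadd45g (-0.45), while Btg2 (0.07) and Gadd45b (-0.05) were within their combined half-widths of 0.10 and 0.13.

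Genes induced by at least 1 in both backgrounds were centred on 0. Of these 206 genes, 104 had an interaction above 0 and 102 below, with a median of 0.00 and quartiles of -0.18 and 0.21. At 0.5 or more there were 22 and at -0.5 or less 6, beside 0.986% and 0.642% of all genes compared. Of 321 genes lower by at least 0.5 with Bic/4AP in both backgrounds, 191 were above 0 and 130 below (median 0.02). Both sets were picked by the responses whose difference is the interaction. Genes that passed the limit in 1 background alone are left out of them, so nothing is read from where the sets are centred.

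Neuronal function genes were shifted a little to the higher side. Synaptic vesicle and scaffold genes had a median of 0.14, with 29 of 31 above 0 but 0 of 31 at 0.5 or more. Their median response to Bic/4AP was -0.32 with the vector and -0.16 with the hairpin. Voltage-gated channel genes had 29 of 34 above 0 (median 0.13), glutamate and GABA receptor genes 24 of 28 (median 0.12), and axon and growth cone genes 21 of 23 (median 0.12). Against these counts, 44.7% of all genes were above 0.

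Among channel and receptor genes, Kcnq3 and Grm2 passed 0.5. The potassium channel gene Kcnq3, which carries part of the M current, had 8.08, 4.89, 5.30 and 4.93 FPKM (0.54), with the untreated vector library alone above the rest. The presynaptic glutamate receptor gene Grm2 had 5.31, 1.97, 2.64 and 1.59 FPKM (0.59). Grm2 passed the level rule through the untreated vector library alone. In the excitatory neuron list Slc17a6, a vesicular glutamate transporter, had 6.26, 6.66, 5.01 and 8.73 FPKM (0.62), highest in hairpin Bic/4AP.

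Stress and growth lists lay slightly below 0. The medians were -0.07 for heat-shock and unfolded-protein genes (21 of 28 below 0), -0.09 for p53 targets (17 of 21), -0.11 for apoptosis regulators (19 of 24) and -0.12 for the TGF-beta, activin and BMP pathway (24 of 30), where 55.3% of all genes were below 0. Hspa1a, the inducible heat-shock protein, had 6.16, 34.6, 7.94 and 28.1 FPKM (-0.61). Among death regulators the anti-apoptotic gene Mcl1 had 84.4, 176, 118 and 172 FPKM (-0.50), and the hypoxia-induced mitophagy gene Bnip3 went the other way with 194, 126, 113 and 104 FPKM (0.51).

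Genes of H3K27 methylation and demethylation, the pathway of the targeted enzyme, had a median of -0.06, with 7 of 20 above 0 and none at 0.5 or more in size. Proliferation genes had 13 of 14 below 0 (median -0.15), beside hairpin differences of 0.79 untreated and 0.65 with Bic/4AP in the median. Oxidative phosphorylation genes had 20 of 25 above 0 (median 0.04), ribosomal protein genes 10 of 25 (median -0.01), and astrocyte markers had 8 of 14 above 0 (median 0.04). Excitatory neuron markers had 12 of 15 above 0 (median 0.20) and fibroblast and meningeal markers 5 of 8 (median 0.04). Only 3 oligodendrocyte, 2 endothelial and 4 ependymal or choroid plexus markers passed the level rule, with medians of -0.02, -0.27 and -0.12. Against the counts in this paragraph, 44.7% of all genes were above 0 and 55.3% below.

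Several of the largest interactions belonged to genes that share a locus with another. Of all 10441 genes, 1666 overlapped another annotated locus (16.0%). Of the 12 genes at 1 or more, 5 overlapped one, and 2 were within their combined bounds. Of the 10 at -1 or less, 3 overlapped, Cxcl10 among them, and none was within the bounds. Pisd-ps1, a pseudogene, had 7.47, 8.34, 7.85 and 0.00172 FPKM (-3.28), and Pisd-ps3 on the same locus had 26.6, 17.1, 22.9 and 25.01. Summed, the pair had an interaction of 0.12. Atp6v0c-ps2 (-2.73) shares a locus with Atp6v0c, a proton pump subunit gene, and that pair summed to 0.04. How reads were divided between such genes by the authors is uncertain, so these values are not read as changes of a gene.

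The largest value on the higher side was Lrrc17, a leucine-rich repeat gene on chromosome 5 from 21049345 to 21081720 (mm9), inside Fbxl13. Its levels were 19.6, 7.92, 14.2 and 33.0 FPKM, with responses of -1.21 with the vector and 1.16 with the hairpin (interaction 2.37, half-width 0.15). Fbxl13 was at 0.864 to 1.63 FPKM. The gene was thus lower with Bic/4AP in vector cultures and higher in hairpin cultures.

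Pet117, overlapping Csrp2bp, had 1.96 with a half-width of 1.78. For Bc1 (1.89, half-width 2.44) and Snhg9 (1.63, half-width 2.66) the bounds were wider than the interaction. Pet117 and Snhg9 passed the level rule through the hairpin Bic/4AP library alone. Bc1 passed the length rule through a second row listed at 0, which is also the row that overlaps other genes, while its level comes from a 166-bp row. LOC624853, with 105, 90.4, 51.6 and 109 FPKM (1.27), overlaps the abundant chaperone gene Hspa8.

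Among genes without an overlap, St8sia4, a polysialyltransferase that modifies neural cell adhesion molecules, had 4.32, 12.4, 1.64 and 13.3 FPKM (1.10). Gipr, a receptor for a gut incretin hormone, had 6.40, 1.61, 2.35 and 1.53 FPKM (1.10), high in vector untreated alone. It passed the level rule through that library only. On the lower side Ccno, a cyclin of multiciliated cells, had 2.26, 16.0, 12.1 and 29.8 FPKM (-1.14). The relaxin gene Rln1 had 9.81, 15.6, 18.7 and 13.6 FPKM (-1.05). St8sia4, Gipr, Ccno and Rln1 were all led by the untreated state.

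**Figure D4:**
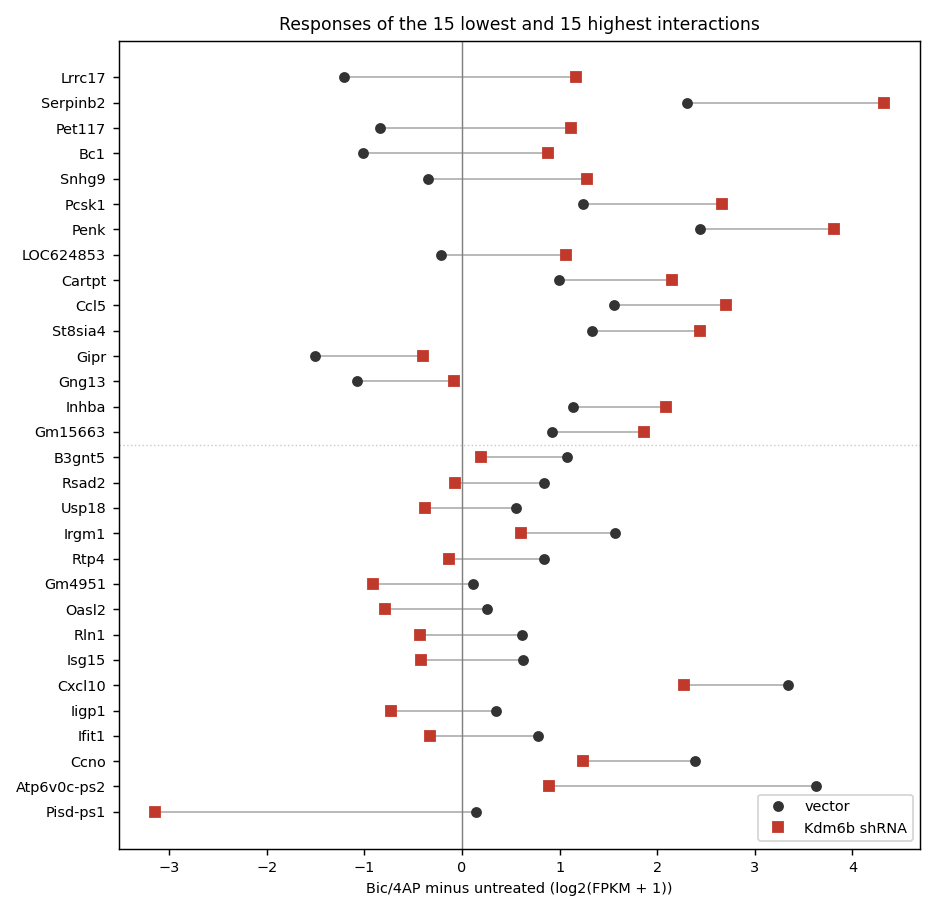
Response to Bic/4AP in log2(FPKM + 1) with the vector (black circles) and the Kdm6b hairpin (red squares) for the 15 highest and 15 lowest interactions. Lrrc17, Pet117, Bc1, Snhg9 and LOC624853 lie below 0 with the vector and above 0 with the hairpin, and Ifit1, Isg15, Iigp1, Oasl2 and Rln1 the reverse.

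Among the 12 lower genes led by the Bic/4AP state, B3gnt5, a glycosyltransferase, had 4.40, 10.4, 5.11 and 5.98 FPKM (-0.89), so that the response was 1.08 with the vector and 0.19 with the hairpin. Emp1, P2ry2, Cxcr7 and Rcan1 were chosen after their values were seen. Emp1, a membrane protein gene, had 44.3, 203, 44.9 and 141 FPKM (-0.55). P2ry2, a nucleotide receptor, had 2.96, 7.92, 2.49 and 4.33 FPKM (-0.56). It passed the level rule through the vector Bic/4AP library only.

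Cxcr7 (Ackr3), an atypical chemokine receptor, had 7.69, 18.1, 8.30 and 12.7 FPKM (-0.59). Rcan1, a calcineurin inhibitor, had 37.3, 125, 47.3 and 94.97 FPKM (-0.73) and was shared by both states. In Emp1, P2ry2, Cxcr7 and Rcan1 the hairpin library was the lower of the 2 with Bic/4AP. Among higher genes also chosen after their values were seen, the cytokine gene Il11 had 0.170, 2.99, 0.210 and 6.50 FPKM (0.86, led by Bic/4AP). Il11 passed the level rule through the hairpin Bic/4AP library alone. Tac1, for substance P, a member of the late and neuropeptide lists, had 27.7, 62.2, 11.0 and 41.7 FPKM (0.70), led by the untreated state.

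The pentraxin receptor gene Nptxr, a member of the late list also outside the naming rule, had 72.5, 36.3, 16.5 and 14.2 FPKM (0.77). Both its hairpin libraries were far below both vector libraries, with hairpin differences of -2.07 untreated and -1.30 with Bic/4AP. The transcription factor gene Cebpb, chosen likewise, had 10.2, 15.2, 6.03 and 18.0 FPKM (0.90). Arrdc3, an arrestin-domain gene, had 16.2, 29.1, 39.8 and 38.9 FPKM (-0.83), lowest in vector untreated.

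Large interactions were more frequent among weakly expressed genes and in the shortest loci. Weakly expressed genes could pass the level rule through 1 high library, so nothing is read from the shares by level. A size of 0.5 or more was found in 83 of 2954 genes with a mean level under 10 FPKM (2.81%), 68 of 5554 from 10 to 50 FPKM (1.22%) and 19 of 1933 at 50 FPKM or more (0.983%). With genes split by locus length into 4 groups of equal size, the shortest loci (median 4.82 kb) held 58 genes at 0.5 or more and 29 at -0.5 or less. The second group held 20 and 24, the third 9 and 9, and the longest loci (median 104.7 kb) 16 and 5, so the fall was not steady. Across genes, which are not independent replicates and share the 4 libraries, Spearman's rho of the interaction was 0.09 with the mean level and 0.02 with locus length.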

How the data were processed

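PolyA RNA of 4 cultures was sequenced with the Illumina TruSeq kit per the labels, 1 library a group. CASAVA 1.8, mm9, Cufflinks 2.0.2 and TopHat2 2.0.8b are listed in the submitters' processing notes, and the role of each and the annotation are not given in the sources used here. The values are the authors' deposited FPKM and their lower and upper bounds for 22878 rows of 22492 symbols. Rows of a symbol were summed. Of the symbols, 42 with a row marked as failed and 730 small RNA symbols were left out, then 11276 under 5 FPKM in all 4 libraries and 3 with loci under 300 bp. The interaction was the hairpin response minus the vector response in log2(FPKM + 1), a pseudocount of 1. The combined half-width is the root of the summed squares of the 4 half-widths of the authors' bounds on that scale.

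With 1 library a group no test was run, and groups came from the labels' virus and treatment. The named genes were the 15 highest and 15 lowest interactions, the 2 genes just inside and outside a size of 1 on each side, up to 4 at each end of 30 gene lists, and 13 genes always given. The members, lists and rules were chosen with earlier results of these data known. The calculation was tested on simulated data whose noise came from the authors' bounds alone, so that check does not cover the spread between cultures. Python 3.11, pandas 2.3.3, numpy 2.4.6, scipy 1.17.1 and matplotlib 3.10.9 were used. Alternatives changed 1 choice at a time: pseudocount, level filter, scaling, rows of a symbol, locus length, small RNA symbols, failed rows and the authors' bounds. Leaving out overlapping loci and dropping rows under 300 bp before summing were chosen after seeing the data. Small RNA genes were not analysed further. The values of 1 gene of the interferon lists are not reported here.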

Additional observations from a re-analysis of the deposited data

Results flagged for a closer look

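Lrrc17 had an interaction of 2.37 because its level was lower with Bic/4AP in the vector library and higher in the hairpin library, by at least 0.5 each, and this opposite direction was not tested with 1 library a group. Pet117 (1.96) and Bc1 (1.89) were singled out for the same reason, also untested, and both have wide bounds; Pet117 overlaps Csrp2bp and the level of Bc1 comes from a 166-bp row. Small RNA symbols, which no comparison used, took 14.2% of summed FPKM in hairpin Bic/4AP, against 9.89% in vector untreated, 5.80% in vector Bic/4AP and 4.97% in hairpin untreated; this difference was not tested either.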

How the results depend on the processing

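Values that changed sign under an alternative were all under 0.1 in size in the report. The survival gene median was -0.08 and the signalling feedback median -0.01 at 5 FPKM or more in all 4 libraries, and the chemokine median was -0.12 with a pseudocount of 0.1. Among alternative values of the counts and list medians, 138 stayed close to the value reported and 20 moved. For single named genes and other lists 3488 stayed close and 62 moved. Counts were judged by a fixed ratio and list medians by a limit of 0.1. A single gene stayed close if it moved by no more than its own combined half-width, so genes with wide bounds could hardly move. Pet117, for example, ran from 1.02 to 2.49 and was counted as close. With a pseudocount of 0.1 there were 16 genes at -1 or less, and 20 of the genes at 1 or more in size were led by the untreated state and 10 by Bic/4AP, against 10, 13 and 6 in the report. With a pseudocount of 5 there were 6 genes at 1 or more, 2 at -1 or less and 2 led by the untreated state, and the medians were -0.27 for interferon-stimulated transcription factors, -0.43 for interferon-stimulated effectors, 0.28 for late effectors and 0.14 for inhibitory markers. At 5 FPKM or more in all 4 libraries there were 3 higher and 4 lower genes, 5 led by the untreated state and 2 by Bic/4AP. The higher genes left were Lrrc17, Bc1 and LOC624853, which all overlap another locus. Serpinb2, Penk, Pcsk1, Cartpt, Ccl5, St8sia4 and Gipr dropped out, each with a library under 5 FPKM. The lower genes left were Atp6v0c-ps2, Isg15, Rln1 and Oasl2. With no level filter 10 were led by Bic/4AP and the interferon effector median was -0.51. At 1 FPKM in 1 library the neuropeptide median was 0.38. Without overlapping loci, an alternative chosen after seeing the data, 7 genes were at 1 or more, 2 were led by Bic/4AP and the neuropeptide median was 0.49. Apart from alternatives that test fewer or more genes by construction, the cause was not tested. Scalings moved the median of all genes by at most 0.014. No paired analysis was possible because each group has 1 library, and for the same reason no library could be left out. Without read totals, depth cannot be set beside these values.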
